A study of Macaca mulatta with 16 samples.

Results

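The interleukin-1 (IL-1) family was followed in the lungs of fetal rhesus macaques exposed to intraamniotic lipopolysaccharide (LPS), a bacterial cell wall component used to model the inflammation of chorioamnionitis. The 10 genes were chosen by name as the main ligands and receptors of the family, from 22515 genes in the table. They are the agonist ligands IL1A, IL1B, IL18 and IL33, the receptor antagonist IL1RN, the receptor chains IL1R1, IL1RAP, IL18R1 and IL1RL1, and the decoy receptor IL1R2. All 10 were found and all 10 were among the 19199 genes with enough reads to be tested.

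Poly(A) RNA from lung tissue of 16 animals in 5 groups was sequenced, 1 library per animal. Preterm controls (n = 4, animals 092, 101, 113 and 209) received no intervention and were delivered at 131 to 135 days of gestation. Term controls (n = 2, animals 200 and 201) also received no intervention and were delivered at 156 and 157 days. The LPS 16h group (n = 4, animals 026, 029, 035 and 038) received 1 mg of LPS at 129 to 130 days and was delivered 16 hours later, at 130 to 131 days. The LPS 5d group (n = 3, animals 239, 240 and 242) received the same dose at 126 to 129 days and was delivered 5 days later, at 131 to 134 days. The LPS + Beta-Ac group (n = 3, animals 248, 249 and 255) received 1 mg of intraamniotic LPS and 0.125 mg/kg of intramuscular betamethasone acetate (Beta-Ac), a slow-release antenatal corticosteroid, at 126 to 127 days, and was also delivered 5 days later, at 131 to 132 days. No control animal is labelled as having had an injection, so the effect of LPS and that of the procedure cannot be told apart.

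IL-1α (IL1A) and IL-1β (IL1B) are early cytokines of innate immunity, and both signal by binding IL1R1, which then recruits the accessory chain IL1RAP. IL-1ra (IL1RN) occupies IL1R1 without signaling, and IL1R2 binds IL-1 but lacks a signaling domain, so both act as brakes. IL-18 signals through IL18R1 with IL18RAP, and IL-33 through IL1RL1 (ST2) with IL1RAP. Given into the amniotic fluid, IL-1 is known to inflame the fetal lung and to bring on early surfactant production.

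Libraries held 20169363 to 28348816 counts, other than those of LPS 16h, which held 30596371 to 48052891, so greater depth and that group cannot be told apart. Lung epithelial markers were abundant in all groups, with summed levels of 9 genes between 6160 and 17100 counts per 1000000 (CPM). Values here are CPM after scaling of each library, each animal was treated as a replicate, and mean ± SD is given. CPM was not corrected for transcript length, so levels are compared between animals and not between genes. A gene was called when its adjusted p from limma was under 0.05 and its change at least 2-fold (1 on the log2 scale). Where ranges are said not to overlap, this only describes the animals, and the share of all genes without overlap is not given. Because the tissue was bulk lung, more cells of a type and more RNA per cell cannot be told apart.

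At 16 hours after LPS, 9 of the 10 genes rose against preterm controls and none fell. Of all genes tested, 14.4% were called in this comparison, 8.3% as higher. The median log2 fold change was 3.04 over the 10 genes and -0.09 over all genes. Scaling by library totals alone moved the median over all genes to -0.29, and the share of higher genes among those called from 57.8% to 39.4%. Each of the 9 genes was still called higher under that scaling.

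**Figure D1:**
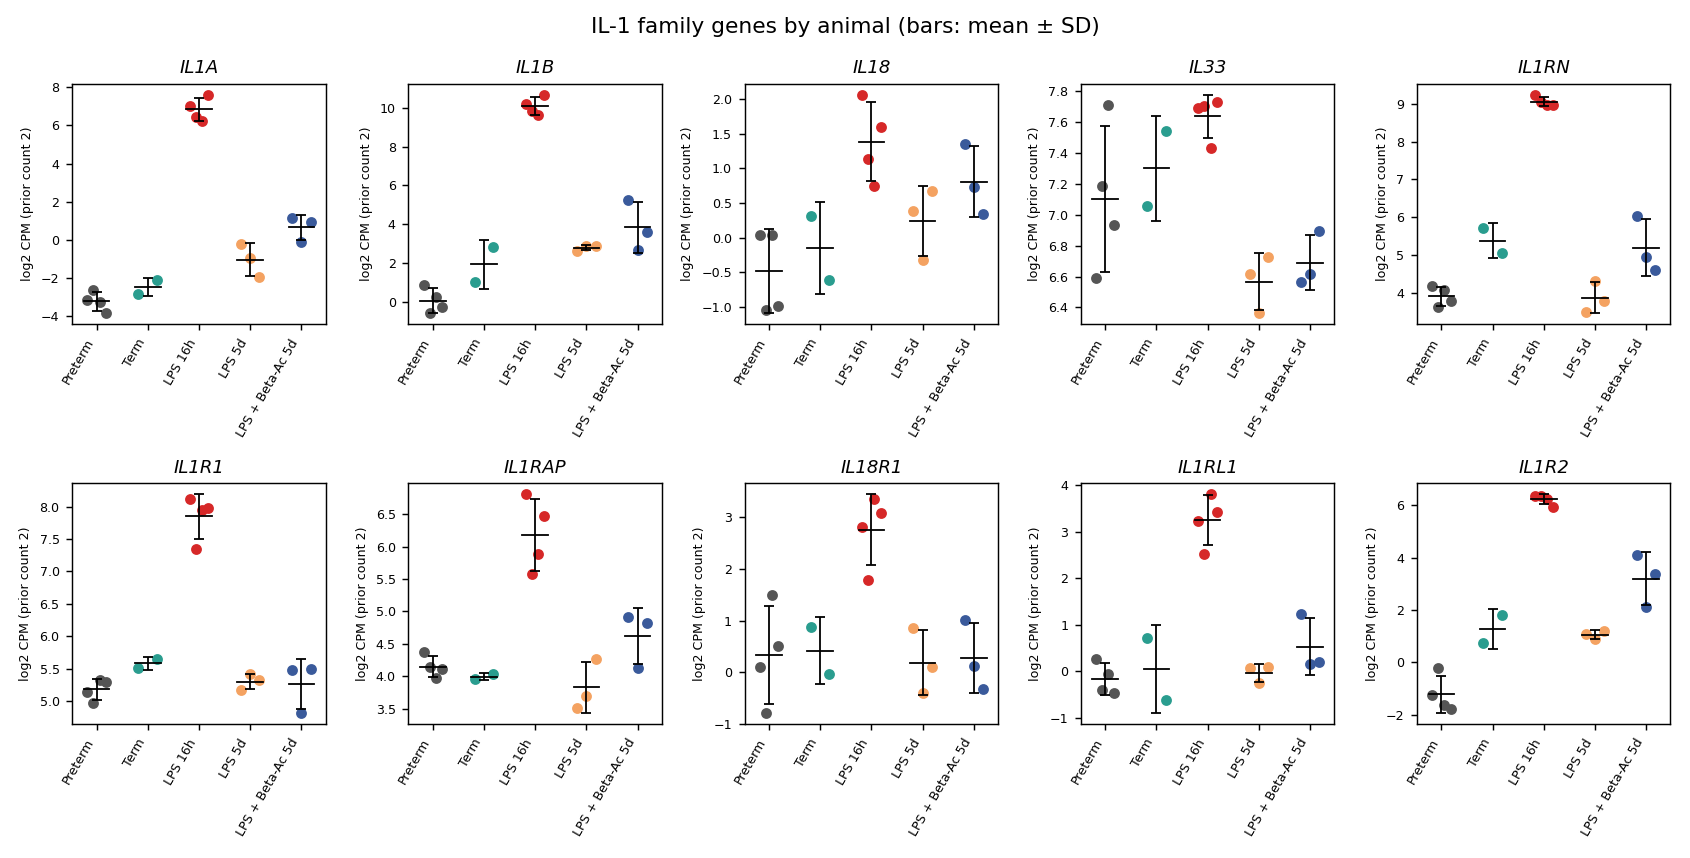
IL-1 family genes in each of 16 animals. Each panel shows 1 gene, the vertical axis is log2 CPM (prior count 2) with its own range, points are animals, and bars give the group mean ± SD. The LPS 16h animals lie above all preterm controls in each panel other than that of IL33.

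Of the ligands, IL1A was close to absent without LPS. It had 1, 2, 1 and 0 counts in preterm controls 092, 101, 113 and 209, and 2 and 5 counts in term controls 200 and 201 (3.02 times the pooled preterm level, 95% exact interval 0.767 to 14.1). At 16h it had 131.9, 87.9, 76.5 and 196.3 CPM in animals 026, 029, 035 and 038, and the ranges did not overlap. The preterm controls held only 4 counts in all, so the size of the rise was taken from the pooled counts, which were 2990 times higher per library (95% exact interval 1170 to 11000, counting error only). The fitted log2 fold change was 10.05 ± 0.42 (SE, limma adjusted p = 2.83e-10), and it depends on the prior count. No preterm or term animal reached the read limit for testing, so IL1A was tested only through the LPS groups, where it was high.

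IL1B had 1.79, 0.601, 1.14 and 0.764 CPM in the same 4 preterm controls and 1177, 916, 782 and 1639 CPM in the 4 LPS 16h animals. The lowest LPS animal therefore stood far above the highest control. The log2 fold change was 10 ± 0.51 (SE, limma adjusted p = 3.91e-09), about 1030-fold.

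The other ligands moved far less. IL18, which is released by inflammasome cleavage as IL-1β is, had 0.958, 0.416, 0.958 and 0.437 CPM in preterm controls and 4.12, 2.13, 1.61 and 2.97 CPM at 16h. Its counts were low (9 to 27 per preterm library), the ranges did not overlap, and it rose by 1.87 ± 0.38 on the log2 scale (SE, limma adjusted p = 0.00118). IL33, an alarmin held in the nucleus of structural cells, had 96.2, 145.4, 209.5 and 122.3 CPM in preterm controls and 206.4, 208.5, 172.5 and 212.2 CPM at 16h. The highest preterm control lay within the LPS range. Its log2 difference was 0.53 ± 0.19 (SE, limma adjusted p = 0.0382), which is under 2-fold, and without animal 092 it was 0.36 with a limma adjusted p of 0.13.

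Both brakes rose. IL1RN had 17.9, 12.2, 16.6 and 13.6 CPM in preterm controls and 609.9, 530.8, 507.0 and 504.7 CPM at 16h, a tight group in which the SD was 49.3 around a mean of 538. The log2 fold change was 5.17 ± 0.27 (SE, limma adjusted p = 2.47e-09), about 35.9-fold. IL1R2 had 0.349, 0.786, 0.248 and 0.218 CPM in preterm controls, from 6 to 17 counts each, and 82.4, 81.3, 75.4 and 61.7 CPM at 16h. It rose by 7.46 ± 0.40 on the log2 scale (SE, limma adjusted p = 3.37e-09), and the groups were far apart.

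The signaling receptor chains rose as well. IL1R1 had 35.3, 31.2, 39.8 and 39.0 CPM in preterm controls and 277.4, 162.8, 246.8 and 252.0 CPM at 16h, a log2 fold change of 2.67 ± 0.17 (SE, limma adjusted p = 1.77e-08). IL1RAP had 20.6, 17.6, 15.6 and 17.2 CPM and then 111.8, 47.8, 59.1 and 88.6 CPM, a log2 fold change of 2.04 ± 0.25 (SE, limma adjusted p = 1.46e-05). Neither gene had an overlap between the groups, and animal 029 was the lowest of the LPS animals for both.

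IL1RL1, the IL-33 receptor, had 1.13, 0.693, 0.887 and 0.655 CPM in preterm controls and 9.35, 5.68, 13.9 and 10.6 CPM at 16h, a log2 fold change of 3.41 ± 0.34 (SE, limma adjusted p = 1.78e-06). IL18R1 had 1.00, 0.508, 2.77 and 1.35 CPM and then 6.96, 3.39, 10.2 and 8.38 CPM, a log2 fold change of 2.43 ± 0.48 (SE, limma adjusted p = 0.00103). Preterm control 113 was the highest control for IL18R1, and it lay below all LPS animals. Animal 035 was the highest and animal 029 the lowest of the LPS animals for both receptors.

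Most of the family lies in a pair of gene neighborhoods. In the RefSeq gene order of the macaque genome (assembly T2T-MMU8v2.0), IL1R2, IL1R1, IL1RL2, IL1RL1, IL18R1 and IL18RAP follow one another, and all 6 were called higher at 16h. Between IL1A and IL1RN lie IL1B and 6 further family genes, IL37, IL36G, IL36A, IL36B, IL36RN and IL1F10. Of these 9 genes, 5 had enough reads to be tested and 3 were called higher, IL1A, IL1B and IL1RN. IL37 and IL36G had log2 differences of 0.74 and -0.30 and were not called. A noncoding gene spans both IL1A and IL1B in the same gene models, and reads from overlapping genes cannot be told apart where counting is not stated to use strand.

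The other family genes and the pathway around them were taken from lists. Of 12 further family ligands and receptors, 5 were tested and 3 rose at 16h. IL18RAP, the accessory chain of the IL-18 receptor, rose by 4.01, the IL-18 binding protein IL18BP by 2.52 and the IL-36 receptor IL1RL2 by 1.33 on the log2 scale. Of 11 receptor-proximal signaling genes, 3 rose and none fell. They were the kinase IRAK2 (log2 fold change 3.51), the adaptor MYD88 (1.51) and the inhibitory IRAK3 (1.31), and the median of this list was 0.09.

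Of 12 listed genes of ligand processing 11 were measured, and the caspase gene CASP1 was not among them. Of these 11 genes 7 rose, among them the inflammasome sensors NLRP3 (log2 fold change 3.06), MEFV (2.11) and AIM2 (1.75) and the adaptor PYCARD (1.66). All 15 tested genes of the IL-1 response list rose, with a median log2 fold change of 6.44. The neutrophil chemokine CXCL8 went from 0.204 ± 0.159 CPM in preterm controls to 577 ± 252 CPM at 16h (n = 4 each), and IL6 from 0.0936 ± 0.103 to 174 ± 61.6 CPM. These genes also respond to LPS through its own receptor.

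Leukocyte markers moved with the family. Of 12 neutrophil markers 10 rose at 16h, and their summed level was 19 to 51.4 CPM in preterm controls and 1790 to 2400 CPM at 16h. The calgranulin S100A9 went from 4.48 ± 2.17 to 958 ± 185 CPM. Of 12 monocyte and macrophage markers 9 rose, and their summed level went from 315 to 463 CPM to 1470 to 1700 CPM. That sum is weighted to a few abundant genes, since VCAN had 579 ± 139 CPM at 16h and CD14 a similar level. The LPS receptor chain CD14 went from 33.2 ± 6.92 to 562 ± 97.5 CPM, while the macrophage receptor MARCO had no count in any preterm control. Their part in the rise of the IL-1 family genes was not tested.

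In the lists of other cell types few genes were called at 16h, where 14.4% of all genes were called. The summed level of 12 T, NK and innate lymphoid markers was 210 to 262 CPM in preterm controls and 276 to 416 CPM at 16h, with 1 gene called higher (CD3D) and 1 lower (GATA3). These sums did not overlap, and the median log2 difference of the list was 0.64. Of 6 tested mast cell and eosinophil markers 1 rose (HDC). Among 7 endothelial markers 1 fell (KDR), among 7 fibroblast and smooth muscle markers none was called, and among 9 lung epithelial markers ABCA3 rose and HOPX fell. The median log2 difference was -0.34 for mast cell and eosinophil markers and -0.23 for endothelial markers. It was -0.67 for fibroblast and smooth muscle markers and -0.32 for lung epithelial markers, against -0.09 over all genes.

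At 5 days after LPS most of the family overlapped the preterm controls. Of the 10 genes, 3 were called, all higher, where 4.83% of all genes were called and 2.6% were called higher. The median log2 difference was 0.13 over the 10 genes and 0 over all genes. The 3 genes were IL1A, IL1B and IL1R2.

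IL1B had 6.13, 7.25 and 7.26 CPM in LPS 5d animals 239, 240 and 242, all above the highest preterm control (1.79 CPM), and rose by 2.71 ± 0.55 on the log2 scale (SE, limma adjusted p = 0.00486). IL1R2 had 2.03, 1.76 and 2.23 CPM against at most 0.786 CPM in preterm controls, and rose by 2.28 ± 0.43 (SE, limma adjusted p = 0.00292). IL1A had only 22, 12 and 4 counts in the 3 animals, a pooled level 12.8 times that of the preterm controls (95% exact interval 4.59 to 49.2, counting error only). Its call was lost with limma-voom, which gave a log2 difference of 3.18 and an adjusted p of 0.194.

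IL1RN showed no such residue. It had 11.2, 19.9 and 13.8 CPM at 5d, on both sides of the preterm values, with a log2 difference of -0.03 (95% interval -0.65 to 0.58, limma adjusted p = 0.961). IL1R1 had 35.9, 42.4 and 39.8 CPM, with a log2 difference of 0.12 (95% interval -0.28 to 0.52), and IL1RAP 11.4, 12.9 and 19.2 CPM, with a difference of -0.32 (95% interval -0.90 to 0.26). The intervals of these 3 genes lie within a 2-fold change in either direction.

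IL18 had 1.23, 0.729 and 1.52 CPM (log2 difference 0.73, limma adjusted p = 0.27), and IL33 had 98.1, 82.2 and 105.7 CPM (log2 difference -0.54, limma adjusted p = 0.0978). IL18R1 had 1.74, 0.691 and 0.996 CPM and IL1RL1 0.980, 0.768 and 0.996 CPM, with log2 differences of -0.14 and 0.13. All 4 overlapped the preterm range.

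The drop from 16h to 5d was tested directly between the LPS groups. All 10 genes were higher at 16h, where 14.6% of all genes were called and 8.02% were called higher. The differences were 7.87 for IL1A, 7.29 for IL1B, 5.20 for IL1RN and 5.18 for IL1R2 on the log2 scale. The receptor chains differed by 3.28 (IL1RL1), 2.58 (IL18R1), 2.55 (IL1R1) and 2.36 (IL1RAP). IL18 and IL33 were the smallest at 1.15 and 1.07, and both lost the call when libraries were scaled by their totals alone (0.96 and 0.88). Leaving out animal 240 took both below the 2-fold limit as well (0.86 and 0.97), and IL18 was also not called without animal 026 (0.92), 038 (limma adjusted p = 0.0883) or 239 (limma adjusted p = 0.0727).

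**Figure D2:**
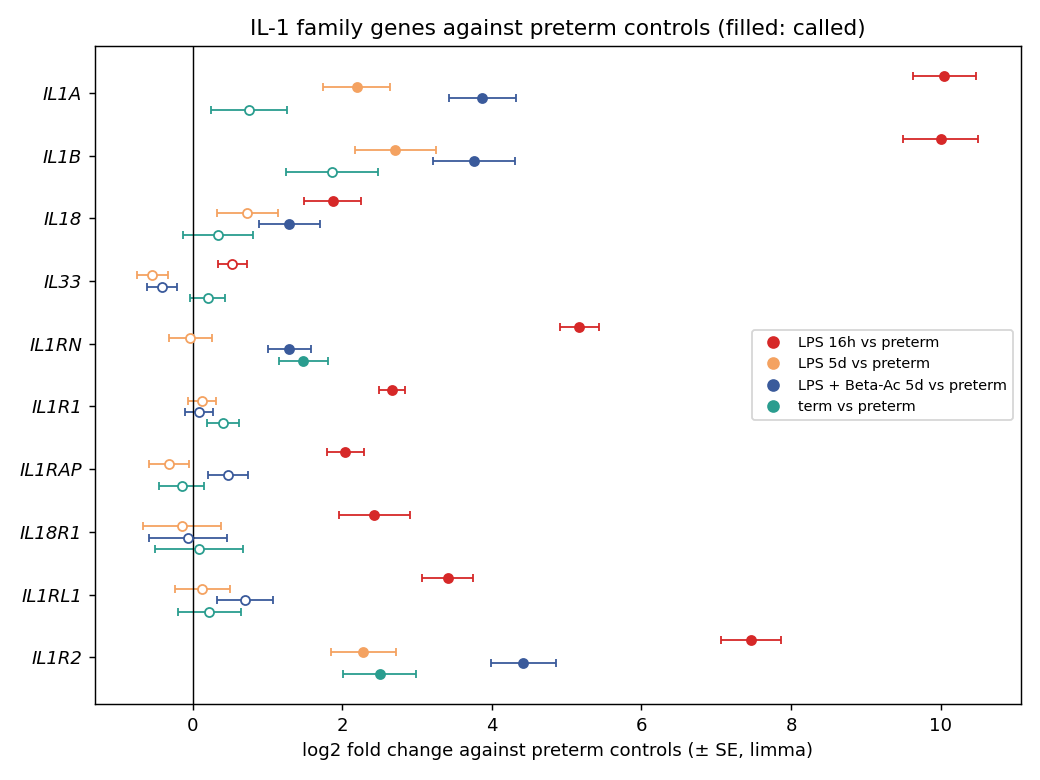
Log2 fold changes of the 10 genes against preterm controls. Points are limma estimates, bars are ± SE, colors mark the 4 comparisons and filled points passed both limits (adjusted p under 0.05 and at least 2-fold). At 16h 9 points are filled, at 5d 3, with LPS + Beta-Ac 5 and at term 2.

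After 5 days of LPS + Beta-Ac, 5 of the 10 genes were higher than in preterm controls and none was lower. Of all genes 6.5% were called and 4.05% were called higher. The median log2 difference was 0.99 over the 10 genes and -0.01 over all genes. The genes were IL1A, IL1B, IL18, IL1RN and IL1R2.

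IL1R2 had 17.1, 4.20 and 10.3 CPM in animals 248, 249 and 255 and rose by 4.42 ± 0.43 on the log2 scale (SE, limma adjusted p = 1.59e-05), about 21.5-fold. IL1B had 38.1, 6.41 and 11.9 CPM and rose by 3.76 ± 0.55 (SE, limma adjusted p = 0.000441), by 3.06 without animal 248 and by 4.36 without animal 249. IL1A had 57, 24 and 48 counts, a pooled level 40.4 times that of the preterm controls (95% exact interval 15.4 to 150, counting error only).

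Animal 248 had the highest value of the group for all 5 of these genes. IL1RN had 65.4, 30.8 and 24.1 CPM and rose by 1.29 ± 0.29 on the log2 scale (SE, limma adjusted p = 0.00622), and without animal 248 the difference was 0.87, under 2-fold. IL18 had 2.48, 1.59 and 1.19 CPM and rose by 1.29 ± 0.41 (SE, limma adjusted p = 0.04). Its call rested on single animals, since leaving out animal 101, 209, 248 or 249 ended it (as did limma-voom and a fit of only the groups compared), and without animal 248 the difference was 1.02 with a limma adjusted p of 0.179.

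The signaling chains were not called with LPS + Beta-Ac. IL1R1 had 44.7, 28.1 and 44.8 CPM, with a log2 difference of 0.08 (95% interval -0.32 to 0.48). IL1RAP had 30.0, 17.4 and 28.2 CPM (difference 0.47, 95% interval -0.10 to 1.05), IL1RL1 2.30, 1.05 and 1.08 CPM (difference 0.70, limma adjusted p = 0.225) and IL18R1 1.96, 1.01 and 0.732 CPM (difference -0.06). IL33 had 94.4, 98.1 and 118.7 CPM, with a log2 difference of -0.41 (limma adjusted p = 0.194).

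Whether Beta-Ac changed the family after LPS was tested between the groups delivered at 5 days. None of the 10 genes was called by limma or limma-voom, where 0.104% of all genes were called. By unadjusted p under 0.05, 4 of the 10 genes passed, against 4.82% of all genes, and all 4 were higher with Beta-Ac. The median log2 difference was 0.68 over the 10 genes and 0 over all genes.

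These 4 genes were IL1R2, IL1RN, IL1A and IL1RAP. IL1R2 was 4.41 times higher with Beta-Ac (log2 difference 2.14, 95% interval 1.16 to 3.13, limma adjusted p = 0.124), and all 3 animals lay above all 3 of LPS alone. IL1RN was 2.5 times higher (log2 difference 1.32, 95% interval 0.67 to 1.98, limma adjusted p = 0.167), again with no overlap, but the value moved with single animals. Without animal 255 it was 1.62 with a limma adjusted p of 0.041, and without animal 248 it was 0.90 with a limma adjusted p of 0.579. IL1A differed by 1.69 (95% interval 0.66 to 2.71, limma adjusted p = 0.335) and did not overlap either. With 3 against 3 animals, ranges can easily lie apart by chance, so the lack of overlap is not read as support here.

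IL1RAP differed by 0.79 (95% interval 0.18 to 1.41, limma adjusted p = 0.704), with overlapping ranges. IL1B differed by 1.05 with an interval of -0.20 to 2.30, and by 0.35 without animal 248, and animal 249 with Beta-Ac (6.41 CPM) lay within the range of LPS alone. The log2 difference of IL1R1 was -0.04 (95% interval -0.46 to 0.39) and that of IL33 was 0.12 (95% interval -0.35 to 0.59), so a 2-fold change lay outside both intervals. IL18, IL18R1 and IL1RL1 differed by 0.57, 0.09 and 0.57, with intervals that included 0. The IL1RL1 ranges did not overlap, at 1.05 to 2.30 CPM with Beta-Ac and 0.768 to 0.996 CPM with LPS alone. Its counts were low, 28 to 61 and 20 to 27 per library.

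The lists around the family were read in the same comparisons. At 5d of LPS alone no gene of the other family members, of receptor-proximal signaling or of ligand processing was called, and 9 of 15 IL-1 response genes were higher. With LPS + Beta-Ac 1 other family member (IL18RAP, log2 fold change 1.09), no receptor-proximal gene, 7 of 11 processing genes and 10 of 15 response genes were higher. The summed level of processing genes was 97.8 to 120 CPM in preterm controls, 154 to 165 CPM with LPS and 157 to 218 CPM with LPS + Beta-Ac. The median log2 difference of the processing list from preterm controls was 0.49 with LPS and 1.12 with LPS + Beta-Ac. LCN2, an antimicrobial protein that IL-1 induces, went from 8.08 ± 3.32 CPM in preterm controls to 143 ± 58.2 CPM with LPS and 251 ± 97.5 CPM with LPS + Beta-Ac. Between these LPS groups none of the 11 processing genes was called by limma or limma-voom (3 had an unadjusted p under 0.05), and of the response genes only SOD2, a mitochondrial antioxidant enzyme (log2 difference 1.58). A fit of only these groups called no gene at all.

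Leukocyte marker sums differed between these groups as well. The summed level of neutrophil markers was 101 to 147 CPM at 5d of LPS and 280 to 514 CPM with LPS + Beta-Ac, and 5 and 9 of the 12 genes were higher than in preterm controls. Animals 248, 249 and 255 had 514.4, 469.9 and 280.4 CPM. Against preterm controls, limma-voom called 3 of the 12 genes with LPS and 8 with LPS + Beta-Ac. No single neutrophil marker was called by limma or limma-voom between LPS + Beta-Ac and LPS, where 9 of 12 had an unadjusted p under 0.05, all higher with Beta-Ac, and the median log2 difference of the list was 1.93. Monocyte and macrophage markers summed to 438 to 457 CPM with LPS and 649 to 985 CPM with LPS + Beta-Ac, with 5 and 10 of 12 higher than in preterm controls. CD163, the macrophage receptor for hemoglobin, was the 1 marker of that list called between these groups (log2 difference 1.97, limma adjusted p = 0.0496), but was not called by limma-voom or by a fit of only these groups. The sums of T, NK and innate lymphoid markers overlapped, at 156 to 241 and 206 to 267 CPM.

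**Figure D3:**
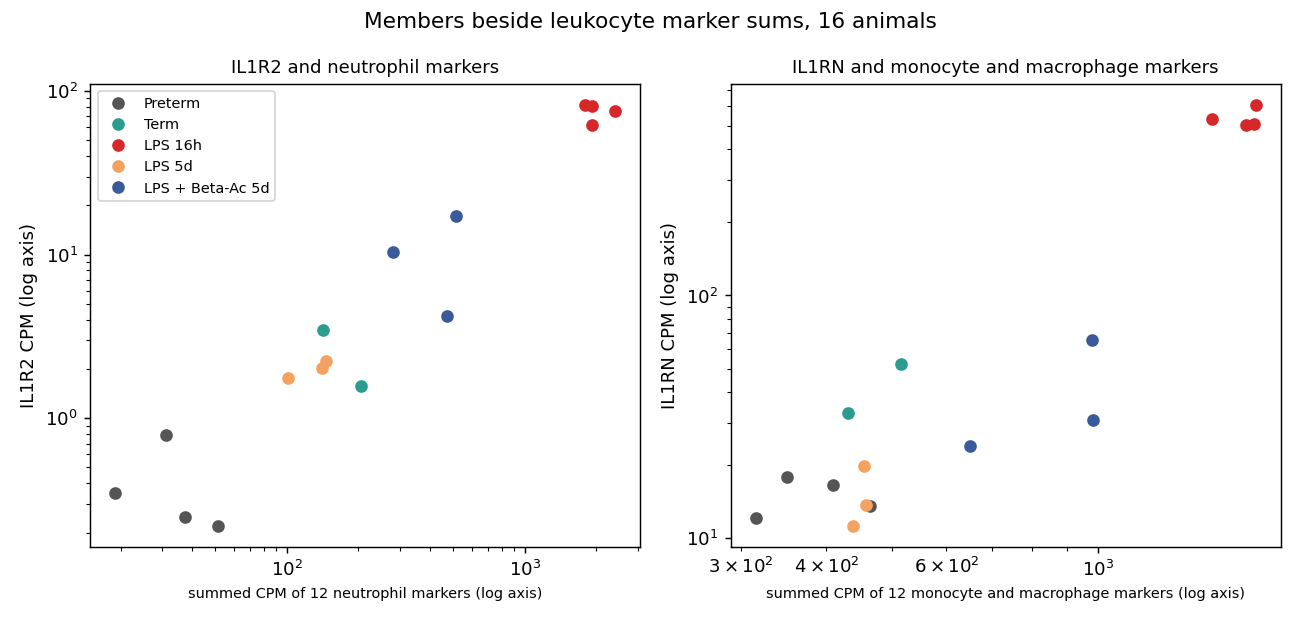
IL1R2 against the summed CPM of 12 neutrophil markers (left) and IL1RN against that of 12 monocyte and macrophage markers (right), 1 point per animal and log axes. The LPS 16h animals are highest on both axes, and the LPS + Beta-Ac animals lie above LPS 5d in the marker sums and in both genes. The part of the marker cells in either gene was not tested.

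Of the other cell type lists at 5d, T, NK and innate lymphoid markers had 1 of 12 genes higher with LPS (KLRB1) and 5 with LPS + Beta-Ac, among them CD4 and CD3D. Mast cell and eosinophil markers had none of 6 and then 2 (HDC and MS4A2). Endothelial markers had none of 7 called in either group, fibroblast and smooth muscle markers none and then 2 lower (COL1A1 and COL1A2), and epithelial markers 1 of 9 higher (ABCA3) and then 2 (ABCA3 and SFTPB). The median log2 difference of fibroblast and smooth muscle markers was alike, -0.75 with LPS and -0.87 with LPS + Beta-Ac. No gene of these lists was called between LPS + Beta-Ac and LPS. No epithelial marker was called lower in either group. The summed level of the 9 epithelial markers was 11400 to 17100 CPM with LPS and 12200 to 17000 CPM with LPS + Beta-Ac. Both lay above the 6160 to 8740 CPM of preterm controls, and the median log2 differences of the list were 0.52 and 0.22.

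Term lung gave a reference without LPS. Of the 10 genes 2 were called, both higher, where 2.07% of all genes were called and 1.11% were called higher, and the medians were 0.37 over the 10 genes and -0.01 over all genes. Both were brakes. IL1RN had 52.2 and 33.0 CPM in term controls 200 and 201, a log2 fold change of 1.48 ± 0.33 (SE, limma adjusted p = 0.0231), and IL1R2 had 1.58 and 3.46 CPM, a log2 fold change of 2.50 ± 0.49 (SE, limma adjusted p = 0.0132).

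These calls rested on 2 animals. Preterm control 209 and term control 200 stood apart from the other control and 5-day libraries on the second principal component (12 animals, without LPS 16h), and without them IL1RN had a limma adjusted p of 0.226. IL1RN was also not called without animal 200 or animal 101 (adjusted p 0.224 and 0.0564), and IL1R2 was not called without animal 201 (adjusted p 0.114), with limma-voom (0.0736) or with the term and preterm animals alone (0.086).

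Of the other genes at term, IL1B had 1.99 and 7.08 CPM, above all preterm controls, but was not called (log2 difference 1.86, limma adjusted p = 0.113). IL1R1 had 45.3 and 50.3 CPM, also above all preterm controls (difference 0.40, limma adjusted p = 0.337). IL18 had 1.18 and 0.582 CPM, IL18R1 1.76 and 0.905 CPM, and IL1RL1 1.58 and 0.582 CPM, each on both sides of the preterm mean. IL33 had 133.4 and 186.4 CPM and IL1RAP 15.5 and 16.3 CPM, within or just under the preterm range.

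At term the lists showed 6 of 15 IL-1 response genes higher, 1 processing gene (AIM2, log2 fold change 1.28) and no other family or receptor-proximal gene. Of 12 neutrophil markers 4 were higher, with a summed level of 142 and 205 CPM, and 1 monocyte marker (CD14). By limma-voom, 4 response genes and 2 neutrophil markers were called at term. The median log2 difference was 1.67 over the neutrophil list and 1.17 over the 12 monocyte and macrophage markers. With 2 term animals, a gene that was not called is not shown to be unchanged. MS4A2 of the mast cell list was higher, CDH5 of the endothelial list and 3 genes of the fibroblast and smooth muscle list were lower (COL1A1, COL1A2 and ACTA2), and no T and NK or epithelial gene was called. Even so, the summed level of 9 epithelial markers was 12400 to 15100 CPM at term and 6160 to 8740 CPM in preterm controls. The median log2 difference of that list was 0.39.

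Ratios within an animal compare partners with little effect of the scaling between libraries. The ratio of IL1RN to IL1B was taken as log2 of CPM plus 0.1, and only its change between groups is read, since the transcripts differ in length. It was 3.25, 4.13, 3.76 and 3.98 in preterm controls, and -0.95, -0.79, -0.63 and -1.70 at 16h. The mean fell by 4.8 (exact permutation p = 0.0286, two-sided, the smallest this design allows, adjusted over 12 tests 0.049).

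At 5d the IL1RN to IL1B ratio was 0.86, 1.44 and 0.91 with LPS and 0.78, 2.25 and 1.01 with LPS + Beta-Ac, all below the preterm controls and above LPS 16h. The means were lower than in preterm controls by 2.71 and 2.43 (exact permutation p = 0.0286 and adjusted p = 0.049 for each). With CPM plus 1 these differences were -3.99 at 16h, -1.99 with LPS and -1.70 with LPS + Beta-Ac. With and without Beta-Ac the ratio differed by 0.27 (exact permutation p = 0.7, where the smallest possible is 0.1). Between 16h and 5d of LPS it differed by -2.09 (exact permutation p = 0.0286, adjusted p = 0.049). The 2 term controls had 4.65 and 2.20, on either side of the preterm values.

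The ratio of decoy IL1R2 to signaling IL1R1 moved the other way. It was -6.30, -5.14, -6.84 and -6.94 in preterm controls and -1.75, -1, -1.71 and -2.03 at 16h, higher by 4.68 (exact permutation p = 0.0286, adjusted p = 0.049). At 5d it was -4.08, -4.51 and -4.10 with LPS, lower than at 16h (difference 2.61, exact permutation p = 0.0286, adjusted p = 0.049), and -1.38, -2.71 and -2.11 with LPS + Beta-Ac.

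Against preterm controls the IL1R2 to IL1R1 ratio was higher by 4.24 with LPS + Beta-Ac (exact permutation p = 0.0286, adjusted p = 0.049) and by 2.08 with LPS (exact permutation p = 0.0571, adjusted p = 0.0857). The LPS + Beta-Ac animals overlapped those of LPS 16h and stood above those of LPS 5d by 2.16, which reached the smallest p that 3 against 3 animals allow (exact permutation p = 0.1). The term controls had -4.76 and -3.82, higher by 2.02 (exact permutation p = 0.0667, again the smallest possible). With IL1R2 under 1 CPM in preterm controls, the added constant sets part of the size. With CPM plus 1 the differences from preterm controls were 3.14 at 16h, 2.80 with LPS + Beta-Ac, 1 with LPS and 0.90 at term, with the same exact permutation p-values.

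**Figure D4:**
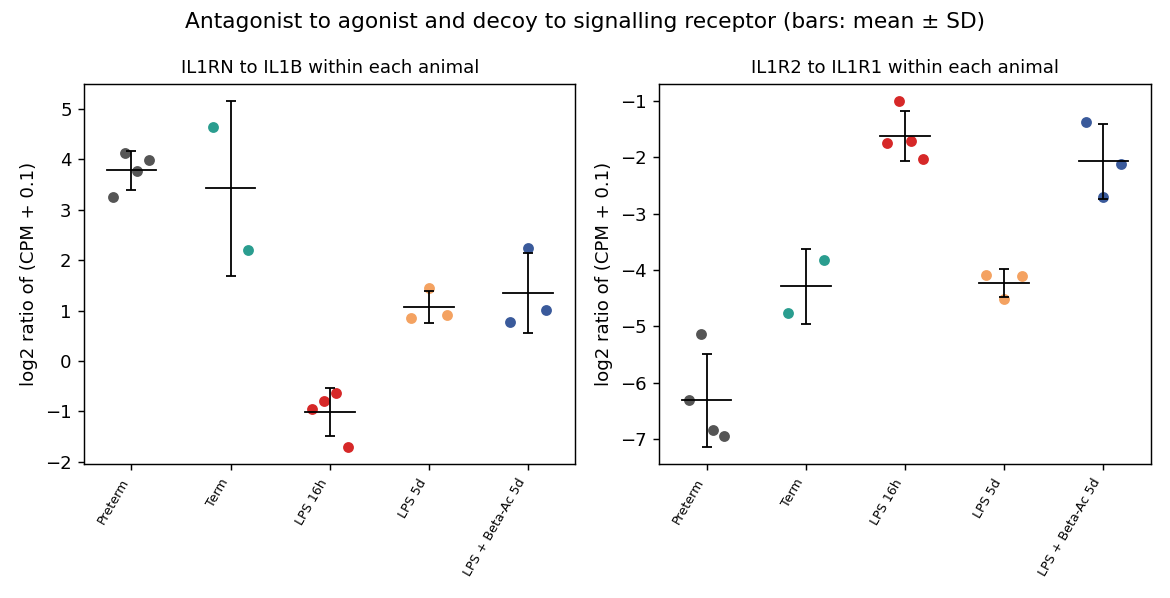
Log2 ratios of IL1RN to IL1B (left) and of IL1R2 to IL1R1 (right) within each animal, from CPM + 0.1. Points are animals and bars are mean ± SD. LPS 16h has the lowest IL1RN to IL1B ratios, and LPS 16h and LPS + Beta-Ac have the highest IL1R2 to IL1R1 ratios.

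Ordered by mean level, LPS 16h was highest for all 10 genes. LPS + Beta-Ac came second for IL1A, IL1B, IL18, IL1RAP, IL1RL1 and IL1R2, term controls for IL33, IL1RN and IL1R1, and preterm controls for IL18R1. For IL1A and IL1R2 the order was LPS 16h, LPS + Beta-Ac and then LPS 5d or term, each of the first 2 steps without overlap. For IL18 and IL33 no neighbor in the order was separated from the next by its range. For IL1RN the term and LPS + Beta-Ac animals overlapped, as did the preterm and LPS 5d animals.

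Genes with the most similar pattern were looked up for the 9 genes called against preterm controls, by the root-mean-square distance of standardized log2 CPM over the 16 animals (median distance to all genes 1.35 to 1.39). IL1B was nearest to the neutrophil chemokine CXCL1 (0.154), CCL3 (0.179) and CHI3L2 (0.179), and IL1A to SLAMF1 (0.138), SAMSN1 (0.138) and ACOD1 (0.147). IL1RN was nearest to LDHA (0.187), PLAUR (0.194) and IL6 (0.207), and IL1R2 to the Fc receptor FCGR2A (0.201), MCEMP1 (0.226) and LST1 (0.229). IL1R1 was nearest to the oncostatin M receptor OSMR (0.131), NXPE3 (0.158) and TNFAIP3 (0.191).

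The remaining chains had IL1RAP nearest to EAF1 (0.204), IRAK3 (0.266) and PTGER4 (0.298), IL1RL1 to TRAF3 (0.214), PITPNA (0.225) and FKBP5 (0.240), and IL18R1 to AP2B1 (0.320), CEMIP2 (0.328) and ACO1 (0.365). IL18 had the most distant neighbors, CD83 (0.387), IL10RA (0.425) and PLEKHB2 (0.433). Between 40 and 855 genes lay within a distance of 0.5 of each gene, and the 4 LPS 16h libraries weigh most in it.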

How the data were processed

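Lung RNA of 16 animals was measured by poly(A) RNA-Seq with paired 75 bp reads. The authors deposited 1 table of whole-number raw counts per Ensembl gene, and the submitters' processing notes name kallisto, DESeq2 and the build Mmul_10, without version numbers. The 22515 gene identifiers were matched to symbols, and 17256 had one. Genes with 0.371 CPM or more in at least 2 animals and 15 counts in all were kept (19199). Counts were scaled by trimmed mean of M values (30% and 5% trims), turned into log2 CPM with a prior count of 2, and fitted in limma 3.58.1 (trend and robust options, R 4.3.3) with a mean per group over all 16 animals. P-values were adjusted by the Benjamini-Hochberg method over all tested genes. No count model was run. Ratios were compared by exact permutation tests of the animals. The steps were tested on simulated data. Depth was 20169363 to 48052891 counts, and intervals on counts cover counting error only. All 10 genes were described in each comparison, up to 4 called genes of each list with the largest change were eligible to be named. The members and lists were chosen with earlier results of these data known. Alternatives were limma-voom, other scalings, filters and prior counts, fits of only the animals compared, no fold limit, and leaving out animals. Scaling by library totals was added after seeing the data. The results of 1 marker list are not reported here.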

Additional observations from a re-analysis of the deposited data

Results flagged for a closer look

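In LPS 16h, animal 035 had the lowest IL33 value, 7.43 on the log2 CPM scale, while the other 3 animals lay between 7.69 and 7.73. Its gap to the nearest animal exceeded Dixon's critical value. Chance alone would set apart about 1 in 20 of the groups looked at, of which there were 24, and this was the 1 found.

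The log2 difference between LPS and preterm controls was higher at 16h than at 5d for all 10 genes, by the direct test between the LPS groups. For IL33 the differences were 0.53 at 16h and -0.54 at 5d, and neither was called. Both effects use the same preterm controls, so this test is the comparison of LPS 16h with LPS 5d given above. For IL18 and IL33 the call was lost with scaling by library totals (0.96 and 0.88) and without animal 240 (0.86 and 0.97). The excess on the log2 scale was 7.87 for IL1A, 7.29 for IL1B, 1.15 for IL18, 1.07 for IL33, 5.20 for IL1RN, 2.55 for IL1R1, 2.36 for IL1RAP, 2.58 for IL18R1, 3.28 for IL1RL1 and 5.18 for IL1R2.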

How the results depend on the processing

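The 9 genes called at 16h stayed called under every alternative tried and without any single animal. Outside the leave-one-out fits, 387 of 400 values of single genes kept their direction and their side of the limits. At term 1 of the 10 genes was called with limma-voom, with only the term and preterm animals, and without animals 209 and 200. Genes called at term numbered 117 with only those groups and 242 without animals 209 and 200. Between LPS + Beta-Ac and LPS, 3 genes were called by limma-voom and 0 with only those groups. With no fold limit 7359 genes were called at 16h, 2827 at 5d, 3317 with LPS + Beta-Ac, 766 at term and 6718 between 16h and 5d. Scaling by library totals moved the median of all genes between 16h and 5d from -0.04 to -0.22, and the share of higher calls there from 54.8% to 38%. Without animals 209 and 200 the term differences of IL18, IL18R1 and IL1RL1 were -0.30, -0.31 and -0.56, and that of IL18R1 with LPS + Beta-Ac was 0. The term difference of the IL1RN to IL1B ratio was 0.14 with log2(CPM + 1). Without animals 209 and 200 the ratio differences of IL1RN to IL1B were -2.64 for LPS 5d and -2.37 for LPS + Beta-Ac, and that of IL1R2 to IL1R1 for LPS + Beta-Ac was 4.03, with an exact permutation p of 0.1, the smallest left with 3 against 3. The cause was not tested where no smaller design accounts for the loss.

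Leaving out each animal in turn, genes called ranged from 2 (without 240) to 57 (without 255) between LPS + Beta-Ac and LPS, and from 129 (without 200) to 562 (without 209) at term. Of the 10 genes, 3 to 5 were called with LPS + Beta-Ac, 1 to 2 at term, 0 to 1 between LPS + Beta-Ac and LPS, and 8 to 10 between 16h and 5d. The IL1RN to IL1B differences ranged from -2.89 to -2.59 at 5d, -2.88 to -2.15 with LPS + Beta-Ac, -2.22 to -1.86 between 16h and 5d, -1.58 to 0.87 at term and -0.18 to 0.56 between LPS + Beta-Ac and LPS. The IL1R2 to IL1R1 differences ranged from 3.90 to 4.63 with LPS + Beta-Ac and from 2.40 to 2.74 between 16h and 5d. The direction of uncalled differences turned for IL1RN at 5d (-0.26 to 0.15), for IL18R1 at 5d (-0.52 to 0.25), with LPS + Beta-Ac (-0.43 to 0.34), at term (-0.37 to 0.55) and between LPS + Beta-Ac and LPS (-0.29 to 0.42), for IL1R1 with LPS + Beta-Ac (-0.03 to 0.33) and against LPS (-0.15 to 0.19), and at term for IL18 (-0.13 to 0.80), IL1RL1 (-0.45 to 0.89) and IL33 (-0.04 to 0.44). No paired analysis was possible because the groups share no animal numbers. Low counts limit IL1A outside LPS 16h.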
